A study of Mus musculus with 12 samples.

Results

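The oncofetal liver genes are genes that the fetal liver expresses strongly, that the adult liver largely shuts off and that liver tumours can switch on again. Of 8 symbols listed, 7 had rows among the 25540 gene symbols of the raw count table: Afp, H19, Gpc3, Igf2, Lpl, Igf2bp3 and the repressor gene Zhx2. Dlk1, the other symbol listed, is not analysed here. Lpl is counted with them because it has been described as a gene that Zhx2 controls in liver. The rule takes rows by symbol and uses no measured value.

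Zhx2 encodes a zinc finger and homeobox protein that helps to silence Afp, H19 and Gpc3 in the liver after birth. The BALB/cJ substrain is known for a retroviral insertion in Zhx2 that lowers its RNA in liver and for Afp that persists in adults. The labels here give the strain as BALB/c and name no substrain. Adult liver also raises Afp and H19 when hepatocytes are injured or regenerate, so these genes are read in many studies as signs of an immature or repairing hepatocyte.

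The libraries hold mRNA of 12 liver samples from BALB/c mice, 3 for each of 4 groups, and all mice had received an injected preparation called iExos in the labels. The title of the series calls these exosomes, small vesicles released by cells, and places the study in liver fibrosis with STAT3 as the target. In the siRNA arm, siSTAT3 was compared with the control siCntrl, and in the mASO arm, mASO STAT3 was compared with the control mASO Scrbl (siRNA is small interfering RNA and ASO is antisense oligonucleotide; the m is not explained). Age, sex, dose, time and the state of the livers are not given in the labels, and livers without an injection were not analysed here. The labels do not say whether replicates are separate animals, so a p-value covers only the spread between these samples.

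Library totals ran from 39844158 to 67791159 counts, and levels below are in CPM, the count of a gene relative to the TMM-scaled total of its library. RNA of the target Stat3 was not lower in either arm, at −0.03 ± 0.14 (log2 fold change ± SE, edgeR adjusted p = 0.868) for siSTAT3 and 0.05 ± 0.14 (edgeR adjusted p = 0.792) for mASO STAT3, so it gives no check of the labels. The names siSTAT3 and mASO STAT3 below, and every direction given for them, therefore refer to libraries so labelled. The livers expressed the hepatocyte markers listed, whose summed level was 50976 to 90326 CPM in the 3 siCntrl and 57200 to 87253 CPM in the 3 mASO Scrbl libraries, against 132261 to 145736 CPM with siSTAT3 and 116152 to 156417 CPM with mASO STAT3. Alb, the albumin gene, made up most of these sums. Its rise did not pass with library totals in place of TMM scaling (log2 fold change 0.41 and 0.25, edgeR adjusted p = 0.109 and 0.318). In bulk liver, fewer cells of a type and less RNA per cell cannot be told apart.

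The Afp promoter is shown because Afp changed most among these genes and because it is silenced after birth at the level of transcription. The 250 bases before the RefSeq start of Afp lie at chr5:90490464-90490713 (+ strand, RefSeq, GRCm38.p6, C57BL/6J reference and not BALB/c). They read as follows, with the letters TATAAA, which match the TATA box motif, in capitals.
Afp promoter: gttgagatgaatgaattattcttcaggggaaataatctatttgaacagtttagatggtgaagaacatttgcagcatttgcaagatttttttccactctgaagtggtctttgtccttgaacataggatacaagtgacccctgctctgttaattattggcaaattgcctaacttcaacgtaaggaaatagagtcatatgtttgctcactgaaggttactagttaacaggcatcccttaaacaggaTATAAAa
The letters searched were TATAAA, exact and on both strands, where overlapping matches counted as 1. The match begins at position −7 from the RefSeq start. Where transcription of Afp starts in these livers, and whether the match serves as its TATA box, was not tested. Of 32851 RefSeq promoter windows of 300 bases (250 before to 50 after the start), 4473 (13.6%) held at least 1 match. Windows of 5 listed genes were found (Afp, Gpc3, Igf2, Dlk1 and Igf2bp3; 4 windows for Igf2), and Afp was the gene among them with a match. A match describes these letters and is not a measured binding site.

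Afp, H19 and Igf2 were the members that changed in at least 1 arm. Afp fell about 98.7-fold with siSTAT3 and 25.5-fold with mASO STAT3, while H19 rose 5.99-fold and 22.2-fold. Igf2 rose 5.50-fold with mASO STAT3. In the siRNA arm, 1 of the 7 genes was higher and 1 lower at an edgeR adjusted p under 0.05, where 45.7% of all 15720 genes tested were called (22.4% higher and 23.4% lower). In the mASO arm 2 of 7 were higher and 1 lower, where 43.8% of all genes were called (21.3% higher and 22.5% lower). The share of members called was thus no higher than that of all genes in either arm, while the members differed from each other in direction and size.

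**Figure D1:**
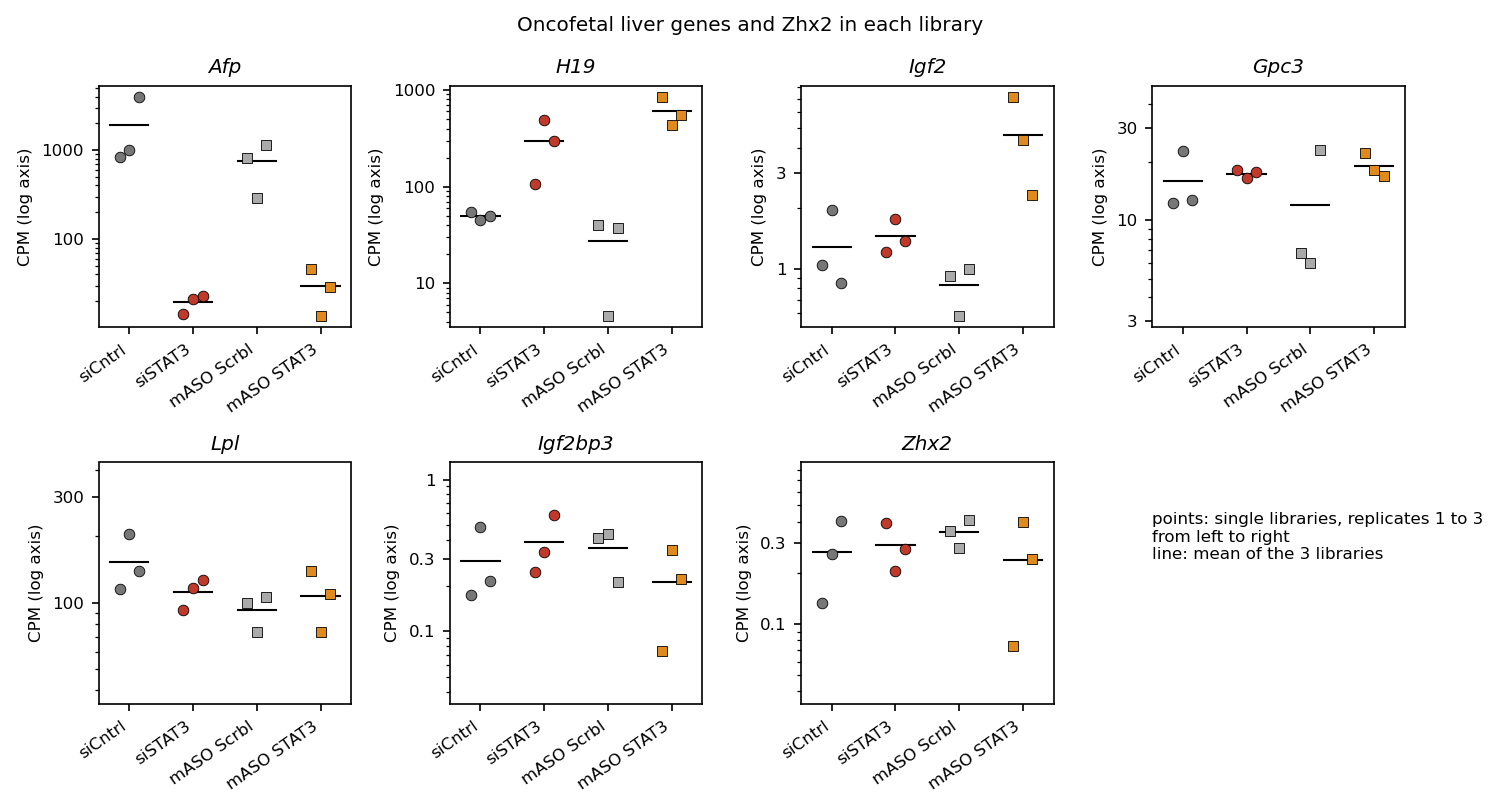
Level of each gene in CPM (log axis) in the 12 libraries, by group; points are single libraries and lines are means of 3. Afp lies between 287 and 3953 CPM in the control libraries and between 13.6 and 45.5 CPM in the libraries of the STAT3 groups, while H19 lies the other way round and Zhx2 stays under 0.41 CPM in every library.

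Afp encodes alpha-fetoprotein, the main plasma protein of the fetus and a serum marker of liver cancer. Its level was 833, 998.9 and 3953 CPM in the siCntrl libraries (replicates 1 to 3) and 14.3, 21.3 and 23.0 CPM in siSTAT3. In mASO Scrbl it was 824.5, 287 and 1136 CPM, and in mASO STAT3 it was 45.5, 13.6 and 29.0 CPM. All 6 control libraries lay above all 6 libraries of the STAT3 groups, and siCntrl 3 stood far above the other controls.

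The group means of Afp were 1928 ± 1755 CPM (SD, n = 3) in siCntrl, 19.6 ± 4.61 in siSTAT3, 749 ± 429 in mASO Scrbl and 29.4 ± 15.98 in mASO STAT3. The log2 fold change was −6.62 ± 0.84 (SE, edgeR adjusted p = 9.72e-05) in the siRNA arm, with a 95% interval of the fold decrease from 27.4 to 355. It was −4.67 ± 0.76 (edgeR adjusted p = 5.82e-04) in the mASO arm, with an interval from 7.94 to 82.1. Groups did not overlap in either arm, and the exact two-sided permutation p was 0.1 in each, the smallest that 3 against 3 allows. Without siCntrl 3 the change in the siRNA arm was −5.55, or 46.9-fold (edgeR adjusted p = 7.63e-05).

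Counts of Afp were also read against those of Alb, the adult counterpart of Afp and its neighbour in the albumin gene family, because a ratio within a library does not depend on scaling. Per 1000 Alb counts, Afp had 12.5, 28.2 and 74.7 counts in siCntrl and 0.153, 0.246 and 0.218 in siSTAT3. It had 14.9, 6.29 and 16.4 in mASO Scrbl and 0.411, 0.1685 and 0.257 in mASO STAT3. The groups did not overlap on this scale either.

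The other 3 members of the albumin gene family, all secreted by hepatocytes, moved the opposite way. Alb rose by 0.88 ± 0.25 on the log2 scale in the siRNA arm (edgeR adjusted p = 0.0101) and by 0.84 ± 0.25 in the mASO arm (0.0142). Gc, the vitamin D binding protein, rose by 0.66 ± 0.16 in both arms, and Afm, which encodes afamin, rose by 1.38 ± 0.24 and 1.44 ± 0.24. With library totals in place of TMM scaling, which moves the median of all genes to −0.53 in the siRNA arm and −0.63 in the mASO arm, Afm stayed higher at 0.90 and 0.85. On that scale Alb, at 0.41 and 0.25, and Gc, at 0.17 and 0.08, did not pass the test. The Alb call in the mASO arm was also lost without mASO STAT3 1, mASO STAT3 3 or mASO Scrbl 2 (edgeR adjusted p = 0.0505, 0.0556 and 0.0657).

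H19 is a long noncoding RNA from an imprinted locus that it shares with Igf2, abundant in fetal liver and low in the adult. Its level was 54.8, 44.7 and 49.6 CPM in siCntrl and 107, 487 and 299.7 CPM in siSTAT3. In mASO Scrbl it was 40.3, 4.57 and 37.8 CPM and in mASO STAT3 it was 848, 432 and 557 CPM. Every library of a STAT3 group was above every control library, with siSTAT3 1 the lowest of the 6 and mASO Scrbl 2 far below the other controls.

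The group means of H19 were 49.7 ± 5.015 CPM (SD, n = 3) in siCntrl, 298 ± 189.8 in siSTAT3, 27.5 ± 19.9 in mASO Scrbl and 612 ± 213.5 in mASO STAT3. The log2 fold change was 2.58 ± 0.71 (SE, edgeR adjusted p = 0.0126) in the siRNA arm, an increase of 2.01-fold to 17.85-fold at 95%. It was 4.47 ± 0.78 (edgeR adjusted p = 8.73e-04) in the mASO arm, an increase of 6.77-fold to 72.98-fold. The exact permutation p was 0.1 in each arm. The siRNA call was lost without siSTAT3 2 (2.03, edgeR adjusted p = 0.0626) or without siCntrl 2 (2.51, edgeR adjusted p = 0.0534).

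Afp and H19, which Zhx2 represses alike in the background given above, thus changed in opposite directions in both arms. Within each library, 100 counts of Afp came with 6.57, 4.48 and 1.26 counts of H19 in siCntrl and with 747, 2283 and 1301 in siSTAT3. The values were 4.89, 1.59 and 3.32 in mASO Scrbl and 1862, 3180.3 and 1921 in mASO STAT3. H19 thus had fewer counts than Afp in all 6 controls and more in all 6 libraries of the STAT3 groups. Against Alb, H19 was less clear in the siRNA arm: per 1000 Alb counts it had 0.824, 1.27 and 0.938 counts in siCntrl and 1.15, 5.62 and 2.84 in siSTAT3, and these groups overlapped.

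**Figure D2:**
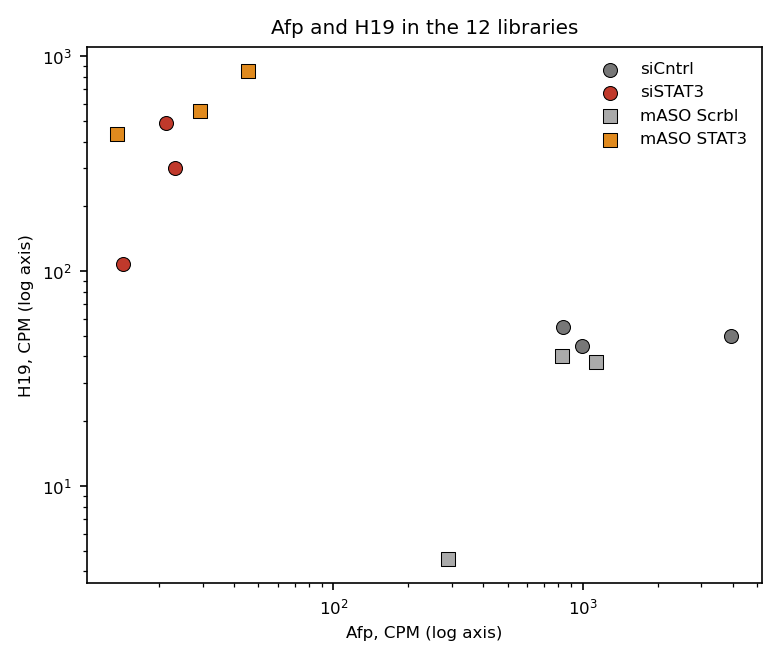
H19 against Afp in CPM (both log axes); each point is 1 of the 12 libraries. The 6 control libraries lie at the lower right, with mASO Scrbl 2 lowest in both genes among them at 287 CPM of Afp and 4.57 CPM of H19, and the 6 libraries of the STAT3 groups lie at the upper left.

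Igf2 encodes insulin-like growth factor 2, the growth factor of the fetus, which in mice is largely silent in adult liver. Its level was 1.04, 1.97 and 0.848 CPM in siCntrl and 1.21, 1.77 and 1.38 CPM in siSTAT3, and these groups overlapped. In mASO Scrbl it was 0.923, 0.581 and 1.003 CPM and in mASO STAT3 it was 7.14, 4.35 and 2.335 CPM. These levels rest on 45 to 290 counts per library, and all 3 mASO STAT3 libraries were above the other 9.

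Igf2 did not pass the test in the siRNA arm, with a log2 fold change of 0.18 ± 0.43 (SE, edgeR adjusted p = 0.753, 95% interval −0.74 to 1.10). In the mASO arm it rose by 2.46 ± 0.44 (edgeR adjusted p = 4.97e-04, exact permutation p = 0.1), an increase of 2.87-fold to 10.55-fold. The difference between the arms was 2.28 ± 0.60 on the log2 scale and did not pass with edgeR (adjusted p = 0.530), though it did with the DESeq2 Wald test (2.30, adjusted p = 0.0434).

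Around Igf2, 13 genes of its axis were tested, comprising ligands, receptors and binding proteins. In the siRNA arm 6 were higher and 4 lower (median log2 fold change 0.18 against −0.04 over all genes), and in the mASO arm 7 were higher and 3 lower (0.74 against −0.05). Igfals, the liver protein that holds circulating IGF in a ternary complex, rose by 3.28 ± 0.26 and 3.37 ± 0.26. Igfbp2 and Igfbp4, secreted IGF-binding proteins, rose by 2.20 ± 0.31 and 1.37 ± 0.16 in the siRNA arm and by 2.78 ± 0.31 and 1.67 ± 0.16 in the mASO arm. Insr, the insulin receptor, rose by 0.92 ± 0.12 and 0.74 ± 0.12, the second of which did not pass with library totals (0.15, edgeR adjusted p = 0.250). Igfbp3, counted as higher in both arms, lost its siRNA call with library totals (0.22, edgeR adjusted p = 0.415). The count of 3 lower in the mASO arm became 1 without mASO STAT3 1 or without any of the 3 mASO Scrbl libraries.

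H19 and Igf2 belong to 16 imprinted genes tested of 22 listed. In the siRNA arm 3 were higher and 6 lower, and in the mASO arm 4 were higher and 6 lower. Their medians were −0.52 and −0.30, against −0.04 and −0.05 over all genes. In the siRNA and mASO arms, 22.4% and 21.3% of all genes tested were higher and 23.4% and 22.5% lower. The lower calls of Mest and Nnat in the mASO arm were each lost without mASO STAT3 1, mASO STAT3 3 or mASO Scrbl 3. Slc38a4, an amino acid transporter, rose by 2.08 ± 0.17 and 1.89 ± 0.17. Cdkn1c, an inhibitor of the cell cycle, rose by 1.19 ± 0.31 (0.68 and not called with library totals) and 2.15 ± 0.32. Sgce, which encodes a sarcoglycan, fell by 1.54 ± 0.19 and 1.39 ± 0.19. Imprinted genes thus changed in both directions, as did the genes tested as a whole.

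**Figure D3:**
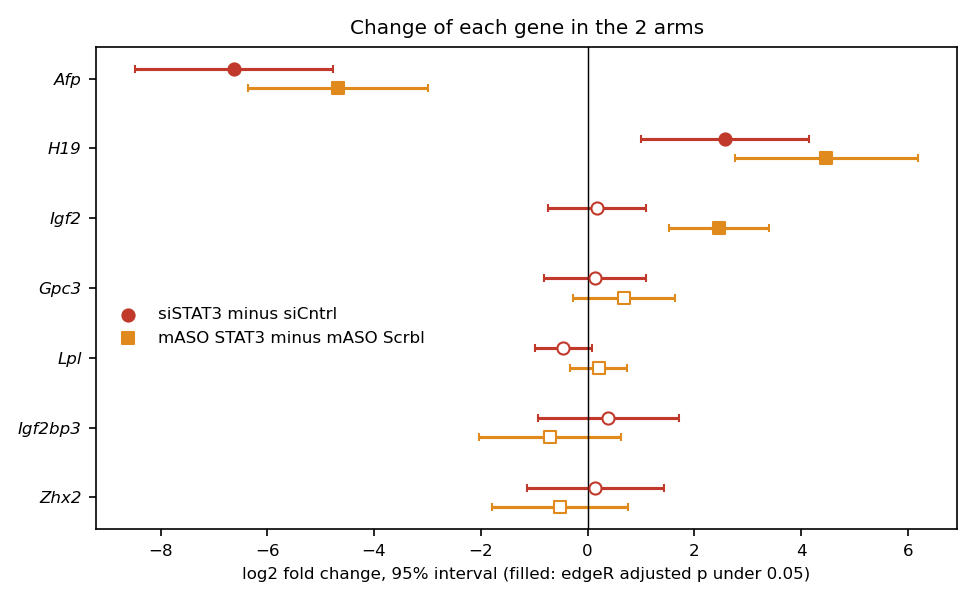
Log2 fold change of each gene with its 95% interval in the siRNA arm (circles) and the mASO arm (squares); filled symbols had an edgeR adjusted p under 0.05. Afp is far below 0 and H19 above 0 in both arms, Igf2 is above 0 in the mASO arm, and the intervals of the other 4 genes include 0.

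Gpc3 encodes glypican 3, a heparan sulfate proteoglycan of the cell surface that is found in fetal liver and hepatocellular carcinoma. Its level was 12.2, 22.7 and 12.8 CPM in siCntrl and 18.1, 16.5 and 17.7 CPM in siSTAT3. It was 6.74, 5.995 and 23.1 CPM in mASO Scrbl and 22.2, 18.3 and 16.9 CPM in mASO STAT3. The groups overlapped in both arms, and in mASO Scrbl the third library was over 3 times as high as the others.

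Gpc3 did not pass the test in the siRNA arm (0.13 ± 0.44, SE, edgeR adjusted p = 0.826, 95% interval −0.82 to 1.09). It did not pass in the mASO arm either (0.68 ± 0.44, edgeR adjusted p = 0.235, interval −0.28 to 1.63). Without mASO Scrbl 3 the latter became 1.58, or 2.995-fold higher (edgeR adjusted p = 3.36e-04). Of 5 glypicans tested, 1 was lower in the siRNA arm, Gpc1 (−1.31 ± 0.41, edgeR adjusted p = 0.0168), and this call was lost without siCntrl 2, siSTAT3 1 or siSTAT3 2. In the mASO arm edgeR, the DESeq2 Wald test and limma voom called none of the 5, and the highest edgeR estimate was that of Gpc3. With library totals Gpc6 was also called lower by edgeR in both arms, at −0.83 with siSTAT3 (adjusted p = 0.0223) and −0.69 with mASO STAT3 (adjusted p = 0.0450).

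Lpl encodes lipoprotein lipase, which releases fatty acids from triglyceride in lipoproteins and is low in normal adult hepatocytes. Its level was 116, 205 and 139 CPM in siCntrl and 92.6, 116 and 127 CPM in siSTAT3. It was 99.3, 73.3 and 106 CPM in mASO Scrbl and 139, 73.9 and 109.5 CPM in mASO STAT3. The groups overlapped in both arms.

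Lpl had a log2 fold change of −0.45 ± 0.25 in the siRNA arm (SE, edgeR adjusted p = 0.152, 95% interval −0.99 to 0.08) and of 0.21 ± 0.25 in the mASO arm (edgeR adjusted p = 0.522, interval −0.32 to 0.74). With library totals it was called lower in the siRNA arm (−0.97, edgeR adjusted p = 0.00547). Among 14 tested genes of the lipase family and the partners of Lpl, 6 were higher and 3 lower in the siRNA arm. In the mASO arm 7 were higher and 1 lower. The shares over all genes tested were 22.4% and 21.3% higher and 23.4% and 22.5% lower in the siRNA and mASO arms. Lipc, the hepatic lipase, rose by 2.42 ± 0.26 and 1.89 ± 0.26, and Lipg, the endothelial lipase, by 1.81 ± 0.37 and 3.13 ± 0.39. Apoc1, an apolipoprotein that inhibits Lpl, rose by 1.97 ± 0.25 and 1.80 ± 0.25. With library totals the lower counts became 6 and 5, and without siCntrl 1 or siSTAT3 1 the count of 3 became 1. The higher counts shrank with library totals. Lmf1 lost its call in both arms (0.25 and 0.17, edgeR adjusted p = 0.0671 and 0.209) and Apoa5 in the mASO arm (0.15, edgeR adjusted p = 0.346).

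Igf2bp3 encodes an RNA-binding protein of fetal tissues and tumours that binds Igf2 mRNA among others. It was close to the limit of detection, at 0.173, 0.488 and 0.215 CPM in siCntrl, 0.247, 0.334 and 0.584 in siSTAT3, 0.413, 0.436 and 0.210 in mASO Scrbl and 0.0738, 0.342 and 0.221 in mASO STAT3. These are 3 to 36 counts per library, and all groups overlapped. The log2 fold change was 0.39 ± 0.61 (SE, edgeR adjusted p = 0.631) and −0.70 ± 0.62 (edgeR adjusted p = 0.380), with 95% intervals of −0.93 to 1.71 and −2.03 to 0.62.

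Of the 7 listed genes of the IGF2BP and LIN28 group, 4 were tested and 3 fell in both arms. Igf2bp2, the member of the family that adult tissues keep, fell by 1.45 ± 0.25 and 1.78 ± 0.25. Hmga2, a chromatin protein of fetal cells, fell by 3.21 ± 0.53 and 2.69 ± 0.52, and its relative Hmga1 by 1.06 ± 0.34 and 2.30 ± 0.35. The call of Hmga1 in the siRNA arm was lost without siCntrl 1, siSTAT3 1 or siSTAT3 2 (edgeR adjusted p = 0.0698, 0.0602 and 0.0653).

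Zhx2, the repressor, was barely detected in any group. Its level was 0.133, 0.258 and 0.402 CPM in siCntrl, 0.390, 0.206 and 0.276 in siSTAT3, 0.352, 0.279 and 0.409 in mASO Scrbl and 0.0738, 0.399 and 0.242 in mASO STAT3. These were 10, 18 and 28 counts, 19, 8 and 9 counts, 29, 23 and 33 counts, and 3, 21 and 12 counts. All groups overlapped. The lowest count, 3, has an exact 95% Poisson interval of 0.619 to 8.77 and the highest, 33, one of 22.7 to 46.3, which cover counting error only.

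The group means of Zhx2 were 0.265 ± 0.135 CPM (SD, n = 3) in siCntrl, 0.291 ± 0.0931 in siSTAT3, 0.346 ± 0.0652 in mASO Scrbl and 0.238 ± 0.163 in mASO STAT3. The log2 fold change was 0.15 ± 0.60 (SE, edgeR adjusted p = 0.859, 95% interval −1.14 to 1.44) in the siRNA arm. In the mASO arm it was −0.51 ± 0.59 (edgeR adjusted p = 0.511, interval −1.78 to 0.75), and −1.10 without mASO STAT3 2 (edgeR adjusted p = 0.220). The interval of the siRNA arm includes a change of 2-fold in either direction, and that of the mASO arm a 2-fold fall.

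The 2 paralogs of Zhx2 were far more abundant per length of exon. Mean CPM per kilobase of exon was 0.0597 to 0.0656 for Zhx2 in the siRNA arm and 0.0537 to 0.0781 in the mASO arm, over 4434 bases of exon in GENCODE vM21, which may differ from the annotation the authors used. For Zhx1 it was 3.77, 5.11, 4.12 and 4.99 in siCntrl, siSTAT3, mASO Scrbl and mASO STAT3, or 52.7 to 93.0 times Zhx2 in the same group. For Zhx3 it was 3.09, 6.10, 2.78 and 5.34, or 35.6 to 99.4 times Zhx2. The paralogs were thus detected at the same depth in the same libraries.

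Zhx3 rose in both arms, by 0.98 ± 0.14 on the log2 scale with siSTAT3 (SE, edgeR adjusted p = 6.84e-05) and by 0.94 ± 0.14 with mASO STAT3 (edgeR adjusted p = 9.72e-05). With library totals these were 0.48 and 0.36 and still passed. Zhx1 did not pass, at 0.44 ± 0.18 (edgeR adjusted p = 0.0583) and 0.28 ± 0.18 (edgeR adjusted p = 0.227), although it passed in the siRNA arm without siSTAT3 2 (0.65, edgeR adjusted p = 0.00224), and with library totals its estimates were −0.05 and −0.30.

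**Figure D4:**
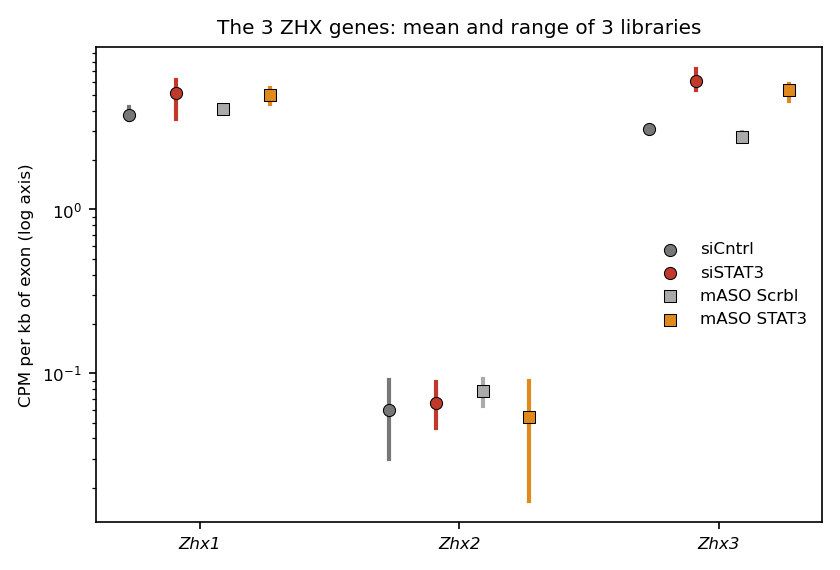
Mean CPM per kilobase of exon (log axis) of Zhx1, Zhx2 and Zhx3 in the 4 groups, with the range of the 3 libraries as bars. Zhx2 lies near 0.06 in every group and its paralogs between 2.78 and 6.10.

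Of 15 known regulators of Afp, Zhx2 among them, 2 were higher and 3 lower in the siRNA arm. In the mASO arm 3 were higher and 2 lower. Their medians were 0.15 and −0.15, against −0.04 and −0.05 over all genes, of which 45.7% and 43.8% were called. Cebpb, higher in the mASO arm (0.80, edgeR adjusted p = 0.0321), lost this call with library totals and without a filter. It was also lost without mASO STAT3 1, mASO STAT3 3, mASO Scrbl 1 or mASO Scrbl 2. Zbtb20, a zinc finger repressor of Afp in adult liver, rose by 0.95 ± 0.15 (SE, edgeR adjusted p = 1.50e-04) with siSTAT3 and by 0.52 ± 0.15 (edgeR adjusted p = 0.0104) with mASO STAT3. With library totals Zbtb20 still passed in the siRNA arm (0.45, edgeR adjusted p = 0.0352) but turned to −0.06 in the mASO arm (edgeR adjusted p = 0.784). Cebpa, a factor of differentiated hepatocytes, rose by 1.81 ± 0.20 and 1.86 ± 0.20, and by 1.34 and 1.28 with library totals. Ctnnb1, which encodes beta-catenin, fell by 0.75 ± 0.20 and 0.82 ± 0.20.

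Trp53, which encodes p53 and is known to repress Afp, fell by 0.46 ± 0.16 in the siRNA arm (edgeR adjusted p = 0.0340) and by 0.67 ± 0.16 in the mASO arm (edgeR adjusted p = 0.00447). The siRNA call was lost without siCntrl 1, siCntrl 2, siSTAT3 2 or siSTAT3 3 (edgeR adjusted p = 0.0882, 0.124, 0.110 and 0.0565). With library totals the count of lower genes in this list became 5 in the siRNA arm and 9 in the mASO arm, and the count of higher genes 2 and 1.

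The other genes of fetal liver and of progenitor cells fell more often than they rose: 13 of 18 tested were lower and 1 higher in each arm, with medians of −1.40 and −0.999. Over all genes tested, 23.4% and 22.5% were lower and 22.4% and 21.3% higher in the siRNA and mASO arms. Without mASO Scrbl 3 the mASO calls of Epcam, Scd2, Slc2a1 and Hk1 were lost. The siRNA call of Aldoa was lost without siCntrl 2, siCntrl 3 or any single siSTAT3 library. Golm1, a Golgi protein that is high in diseased liver, fell by 2.55 ± 0.21 and 2.54 ± 0.21. Pkm, the glycolytic pyruvate kinase of fetal and proliferating cells, fell by 2.25 ± 0.22 and 1.70 ± 0.21, and Spp1, which encodes osteopontin, by 3.41 ± 0.40 and 3.75 ± 0.41. Cyp3a16, a cytochrome P450 of the fetal and young mouse liver, was the gene of this list that rose, by 7.13 ± 0.58 and 7.74 ± 0.59 (8.61 without mASO Scrbl 3), from means of 0.121 and 0.102 CPM to 17.3 and 22.2 CPM. Afp thus moved with most of this list, while H19 and Cyp3a16 moved against it.

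Of 12 ligands, receptors and targets of NOTCH tested, a pathway that Dlk1 belongs to, none rose with edgeR, the DESeq2 Wald test or limma voom, while 6 were lower in the siRNA arm and 5 in the mASO arm. Jag1, a ligand, fell by 1.47 ± 0.25 and 1.02 ± 0.24, and Hes1, a target gene, by 1.84 ± 0.32 and 1.65 ± 0.32. Of all genes tested, 23.4% were lower in the siRNA arm and 22.5% in the mASO arm. The siRNA calls of Dll1 and Dll4 were each lost without siCntrl 2, siCntrl 3, siSTAT3 1 or siSTAT3 3. The count of 5 became 3 without mASO STAT3 2, mASO STAT3 3 or mASO Scrbl 1. With library totals Jag2, Notch2 and Notch4 were also called lower in the siRNA arm, and Dll4 and Notch1 in the mASO arm.

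**Figure D5:**
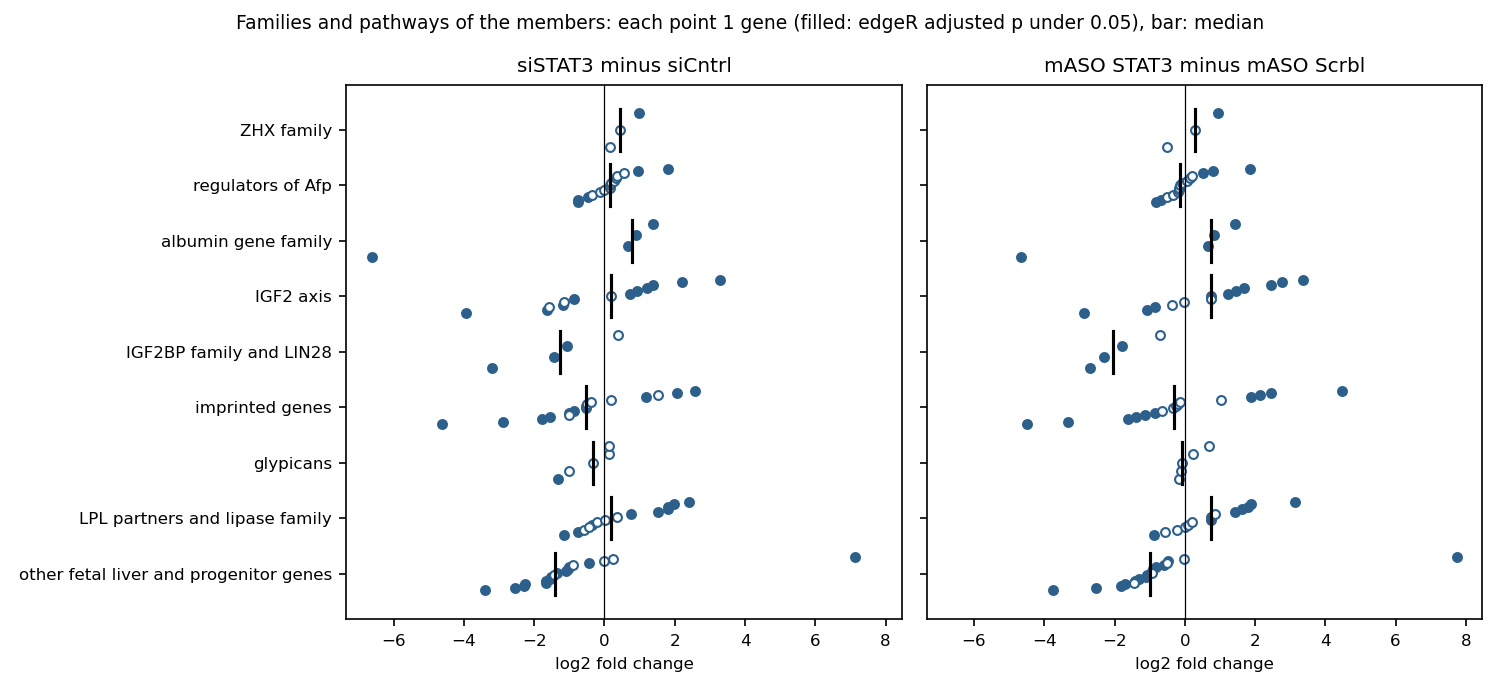
Log2 fold change of each tested gene of the families and pathways around the members, in the siRNA arm (left) and the mASO arm (right); each point is 1 gene, filled at an edgeR adjusted p under 0.05, and bars are list medians. The isolated point at the far left of the albumin gene family is Afp (−6.62 and −4.67), and the one at the far right of the last list is Cyp3a16 (7.13 and 7.74).

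Markers of other liver cells were also read. In the siRNA and mASO arms, 23.4% and 22.5% of all genes tested were lower and 22.4% and 21.3% higher. Of 14 markers of stellate cells and myofibroblasts, 10 fell and 2 rose in the siRNA arm and 9 fell and 4 rose in the mASO arm. With library totals in place of TMM the number higher became 0 and 2, and in the siRNA arm it became 1 without siCntrl 3 or siSTAT3 3. Their summed level was 1300 to 1738 CPM in siCntrl against 263 to 332 CPM with siSTAT3, and 895 to 2054 CPM in mASO Scrbl against 309 to 403 CPM with mASO STAT3. Of 8 cholangiocyte markers tested, 5 and 4 fell, with sums of 682 to 1527, 170 to 235, 739 to 1498 and 155 to 191 CPM in the same order of groups. Of 13 macrophage markers, 8 and 5 fell and 1 and 2 rose, with sums of 690 to 1357, 433 to 518, 781 to 935 and 431 to 516 CPM. With library totals none of these 13 was called higher in either arm, and 9 and 7 were called lower. The count of 1 higher in the siRNA arm also became 0 without siCntrl 1, siCntrl 3 or siSTAT3 3, and 2 without siCntrl 2. The count of 2 in the mASO arm became 0 without mASO Scrbl 2 or 3, and 1 without any single mASO STAT3 library. Of 8 endothelial markers, 4 and 3 fell and 0 and 1 rose. Their sums overlapped in both arms, at 182 to 225, 136 to 207, 172 to 210 and 136 to 235 CPM. The rise, of Clec4g, was not called with library totals (0.13, edgeR adjusted p = 0.672). The lower calls of Cdh5 and Pecam1 in the mASO arm were each lost without mASO STAT3 1, mASO STAT3 3, mASO Scrbl 1 or mASO Scrbl 3. In the siRNA arm the call of Cdh5 was lost without siSTAT3 1, siSTAT3 2 or any single siCntrl library. Of 7 erythroid markers tested, 2 and 1 rose and 0 fell. Hba-a2, 1 of the 2, was not called with library totals (0.36, edgeR adjusted p = 0.322). Of 3 adipocyte markers tested, 2 fell and 0 rose in each arm. The defining marker Cftr of cholangiocytes was under 0.15 CPM on average in every group, and Hbb-bh1, an embryonic globin, was at 0 counts in all 12 libraries.

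Of 14 cell cycle genes, 7 fell in each arm, and their summed level was 82.9 to 183 CPM in siCntrl against 36.0 to 48.0 CPM with siSTAT3, and 120 to 291 CPM in mASO Scrbl against 29.7 to 56.4 CPM with mASO STAT3. In the siRNA arm the count became 4 without siCntrl 2. Of 12 hepatocyte markers, 7 rose in the siRNA arm (4 with library totals) and 10 in the mASO arm. With library totals Alb, Ttr and Cps1 lost their call in the mASO arm (edgeR adjusted p = 0.318, 0.149 and 0.0601). The part of these changes in those of Afp, H19 and Igf2 was not tested.

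The genes whose levels followed each member most closely were found by the smallest root mean square difference in log2 CPM over the 12 libraries, each gene centred on its own mean, among 12413 genes of at least 1 CPM. Among the 3 nearest to Afp were Tagln and Thbs1, at differences of 0.76 and 0.77 where the SD of Afp itself was 2.87. Tagln, a smooth muscle and myofibroblast gene, had means of 186 ± 37.0 CPM (SD, n = 3) in siCntrl, 5.54 ± 1.01 in siSTAT3, 178 ± 39.7 in mASO Scrbl and 6.59 ± 1.05 in mASO STAT3. Nearest to H19 (SD 2.13) were Gamt, Gm13017 and Slc13a3, at 0.79, 0.81 and 0.84. Gamt, an enzyme of creatine synthesis, had means of 45.04, 364, 25.3 and 342 CPM in the same order.

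Among the 3 nearest to Igf2 (SD 0.97) were H2-Eb1 and H2-Ab1, both at 0.50, which encode class II chains for antigen presentation. For Gpc3 (SD 0.61) they were Lhx2, Plscr4 and Astn2, at 0.30, 0.30 and 0.31. For Lpl (SD 0.39) they were Gpc6, AB124611 and 4930523C07Rik, at 0.23, 0.24 and 0.24. Zhx2 and Igf2bp3 were below the 1 CPM needed for this measure.

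Comparing the arms, none of the 7 genes passed edgeR's test of the difference between the 2 changes, where 0.00636% of all genes did. The changes of Afp differed by 1.95 ± 0.94 (log2, edgeR adjusted p = 0.690, 95% interval −0.12 to 4.02) and by 0.90 without siCntrl 3, and those of H19 by 1.89 ± 0.96 (edgeR adjusted p = 0.695, interval −0.23 to 4.01). At an unadjusted p under 0.05, 1 of the 7 (Igf2) and 1161 of 15720 genes differed, and limma voom called none of the 7.

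Between the 2 controls, mASO Scrbl and siCntrl, none of the 7 passed, where 0.0127% of all genes did, nor did any with the DESeq2 Wald test or limma voom, and 1 of the 7 (Lpl) had an unadjusted edgeR p under 0.05, as had 1234 of all 15720 genes. Afp was lower in mASO Scrbl by 1.36 ± 0.66 on the log2 scale without passing the test (edgeR adjusted p = 0.647), and by 0.31 without siCntrl 3. Lpl, at −0.72 ± 0.25 (edgeR adjusted p = 0.569), and H19, at −0.85 ± 0.68 (edgeR adjusted p = 0.743), did not overlap between the controls, each with an exact permutation p of 0.1. That is the smallest p that 3 against 3 allows. The share of all genes without such overlap was not counted, so it says nothing particular about these genes. Library numbers in the labels recur between the arms, and any batch that follows the arms cannot be told apart from the preparations in such comparisons.

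Between the 2 STAT3 groups, edgeR called 0% of all genes and none of the 7, where 919 genes had an unadjusted p under 0.05, limma voom called 0 genes and the DESeq2 Wald test called 79. Igf2 was higher in all 3 mASO STAT3 libraries than in all 3 siSTAT3 libraries, by 1.66 ± 0.43 on the log2 scale (edgeR adjusted p = 0.391, exact permutation p = 0.1), and the DESeq2 Wald test called it (adjusted p = 0.0288). Afp differed by 0.59 ± 0.67 (edgeR adjusted p = 0.984) and H19 by 1.04 ± 0.68 (edgeR adjusted p = 0.949). The difference comparison and these 2 share libraries with the arms, so they are no independent evidence.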

How the data were processed

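The counts used were deposited by the authors as raw whole numbers, 1 row per symbol, without normalization. A further deposited table of normalized signal equals those counts over a single factor per library, judged from the values, and served only for that check. The labels' protocols name TRIzol for the RNA and a stranded Illumina mRNA kit for the libraries. TopHat and Cufflinks are named without role, per the submitters' processing notes. For build, annotation, counting tool and strand setting the entry reads "not given in the sources used here". If strand was ignored, antisense transcripts that overlap H19 or Igf2 would be counted with them.

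The 12 libraries entered 1 edgeR model (4.0.16, in R 4.3.3) with a coefficient for each group, TMM scaling and edgeR's expression filter (minimum count 10, minimum total 15, about 0.166 CPM). This kept 15720 genes and removed 9820. All 7 members passed; Zhx2 reached that level in 2, 3, 3 and 2 libraries of siCntrl, siSTAT3, mASO Scrbl and mASO STAT3. Calls are from the robust quasi-likelihood F test at a Benjamini-Hochberg adjusted p under 0.05 over all genes. The residual degrees of freedom were 8, and the biological variation (BCV) was 0.247. Levels are CPM on TMM-scaled totals, and the prior count of log2 CPM was 2. Single members were also compared by an exact two-sided permutation test. The procedure was tested on simulated counts in which few genes changed, equally often up and down. That test does not check the scaling where many genes change, as here. Pairs of libraries in a group differed by a chi-square per degree of freedom of 52.6 to 222, so none was a duplicate.

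Members and lists were chosen with earlier results of these data known. All members are named, and from each list up to 4 genes with the smallest p in either arm. Among those, examples were chosen with their values in view. A few genes that these rules name are not reported here. Lists are described by counts and medians and carry no test. Alternatives were DESeq2 size factors, library totals, the DESeq2 Wald test (1.42.0), limma voom (3.58.1), no filter, 1 CPM in 3 libraries, a replicate block, the compared groups alone and leaving out each library.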

Additional observations from a re-analysis of the deposited data

How the results depend on the processing

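Within the arms, 102 of 108 values of single members under other settings and 74 of 84 with a library left out kept both their direction and their call. The call changed for Lpl in the siRNA arm with library totals (−0.97, called lower), for H19 in the siRNA arm, which ranged from 2.03 to 2.98 with a library left out, and for Gpc3 in the mASO arm, which ranged from 0.35 to 1.58. The other exceptions were estimates that passed no test under either setting and changed sign. With library totals those of the siRNA arm were −0.39 for Gpc3, −0.35 for Igf2, −0.34 for Zhx2 and −0.14 for Igf2bp3, and that of the mASO arm was −0.38 for Lpl. With a library left out the ranges in the siRNA arm were −0.026 to 0.48 for Gpc3, −0.049 to 0.62 for Igf2, −0.17 to 0.58 for Zhx2 and −0.014 to 0.97 for Igf2bp3, and in the mASO arm −0.019 to 0.42 for Lpl. Between the STAT3 groups they were −0.86 to 0.13 for Zhx2 and −0.29 to 0.15 for Lpl. The cause was not tested. The count of genes called in the siRNA arm was 6124 to 8921 under other settings and 5980 to 6587 with a library left out, and in the mASO arm 6429 to 9464 and 5672 to 6214. With library totals the siRNA arm had 1655 higher and 7266 lower, against 3515 and 3675 with TMM, and the mASO arm had 1525 and 7939, against 3344 and 3542.

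The 1 gene called in the difference of the arms became 3 without a filter, 2 with the stricter filter, 62 with the DESeq2 Wald test, 2 with limma voom and 0 to 8 with a library left out. The 2 genes called between the controls became 5 with library totals, 7 without a filter, 79 with the DESeq2 Wald test and 0 to 13 with a library left out. The 0 between the STAT3 groups became 6 without a filter, 79 with the DESeq2 Wald test and 0 to 5. The stricter filter removed Zhx2 and Igf2bp3, which therefore have no value there.

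The labels give the groups the same replicate numbers, but residuals of same-numbered libraries correlated at −0.238 to 0.187 and 2 of 12 libraries correlated best with their own number, so a shared number was treated as a name and not as a pair. With a replicate block the difference of the arms had 0 genes called in place of 1, and no call of a member changed. Depth limits Zhx2 and Igf2bp3, whose lowest libraries held 3 counts.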
